A study of Mus musculus with 11 samples.

Results

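The 4 mRNA probes, Actb, B2m, Gapdh and Rpl19, sit as reference genes on a microRNA (miRNA) assay that was run on the oviducts of mice given lipopolysaccharide (LPS), the endotoxin of Gram-negative bacteria. They were taken as the probes whose class in the count table is Housekeeping, 4 of the 626 probes, and all 4 are described in all 11 mice. B2m did not stay level: it was several-fold higher after LPS in most mice and close to control in 1 mouse of the high dose. The other 3 passed no test fitted across the table.

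The animals were female CD1 mice, an outbred strain, aged 6 to 8 weeks and shown to be cycling. Each received an intraperitoneal injection of PBS on the day of estrus, which carried no LPS in the control group. The low dose group received 2 µg of E. coli LPS per mouse and the high dose group 10 µg, and oviducts were taken 24 h later. The data cover 3 control, 4 low dose and 4 high dose mice, each a separate animal with whole-oviduct RNA. The design planned 4 mice per group, and 1 planned control mouse is not analysed here.

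B2m encodes β2-microglobulin, the light chain of major histocompatibility complex (MHC) class I, which nearly every nucleated cell carries on its surface to present peptides to T cells. Its gene is known to respond to interferons and to NF-κB, the transcription factor that Toll-like receptor 4 switches on when it senses LPS. Actb encodes β-actin of the cytoskeleton, Gapdh a glycolytic enzyme, and Rpl19 a protein of the large ribosomal subunit. Such genes are used as references in the belief that their level is the same in all samples, and a reference gene that moves with treatment shifts every value divided by it. The table holds no other mRNA, so other genes of the MHC class I or interferon pathways were not measured. In whole tissue, fewer cells of a type and less RNA per cell cannot be told apart.

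The B2m promoter is shown because B2m was the reference gene that changed. In GRCm38.p6 (RefSeq) the gene spans chr2:122147687-122153082 on the plus strand, and the 250 bases before its start are chr2:122147437-122147686. Capitals mark matches, on either strand, to GGGNNTT (part of the NF-κB motif), AANNGAA (the core of the interferon regulatory factor motif) and CCAAT (the Y box of MHC genes).
B2m promoter: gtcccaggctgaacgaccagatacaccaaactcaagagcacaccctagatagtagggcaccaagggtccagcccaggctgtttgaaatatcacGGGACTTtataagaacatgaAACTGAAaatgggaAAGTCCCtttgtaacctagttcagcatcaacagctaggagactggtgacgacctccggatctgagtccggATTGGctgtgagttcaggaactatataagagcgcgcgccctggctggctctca
The window held 2 matches to GGGNNTT, at bases 157 to 151 and 123 to 117 before the start, and 1 match to AANNGAA between them at bases 137 to 131. A CCAAT box lay on the minus strand at bases 53 to 49. These short motifs are common: of 32851 mouse promoter windows of the same length, 41.2% held GGGNNTT, 46.3% AANNGAA, 33.85% CCAAT and 6.81% all 3. The Gapdh window held none of them. The windows of the 2 Rpl19 starts overlap. They held 1 and 2 matches to GGGNNTT, of which 1 is the same site seen in both windows, and no match to the others. The searched letters describe these windows and do not show binding. The promoter of Actb was not analysed here.

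The 6 miRNAs set against B2m in the results are shown as mature sequences from RefSeq, with the seed (bases 2 to 8) in capitals. The first pair had the highest correlation with B2m over the 11 lanes when both were scaled to the positive controls, and the other 4 changed after LPS with slopes on B2m that were near 0 or negative.
miR-146a: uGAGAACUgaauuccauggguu
miR-132: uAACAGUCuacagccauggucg
miR-155: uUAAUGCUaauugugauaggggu
miR-203: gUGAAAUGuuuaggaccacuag
miR-101a: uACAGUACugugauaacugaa
miR-222: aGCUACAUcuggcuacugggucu
None of the 6 shares its seed with another. The assay names no arm for them, and the arm printed is the one generally known as the main product. In GRCm38.p6 they lie at chr11:43374435-43374456 (miR-146a, minus strand), chr11:75173723-75173744 (miR-132, plus), chr16:84714143-84714165 (miR-155, plus), chr12:112130927-112130948 (miR-203, plus), chr4:101346957-101346977 (miR-101a, minus) and chrX:19146901-19146923 (miR-222, minus).

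Counts are digital: the assay counts single fluorescent barcodes, without amplification. The summed count of mouse miRNAs was between 451323 and 684771 per lane. The factor that brings the 6 positive control probes of each lane to a common geometric mean was between 0.873 and 1.22, and values multiplied by it are called scaled counts. Binding density was 0.97 to 1.28, and 596 to 600 of 600 fields were counted. The sample numbers in the labels run in group order, so any effect of assay order and the treatment cannot be told apart. Levels of different probes are not compared, since each probe has its own efficiency.

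B2m was higher after LPS at both doses. Its scaled counts were 689, 660 and 847 in the control mice. They were 3528, 3036, 1677 and 3209 in low dose mice 1 to 4, and 5697, 884, 6161 and 4701 in high dose mice 1 to 4. All 8 LPS mice thus lay above all 3 control mice, but high dose mouse 2 exceeded the highest control only slightly, and low dose mouse 3 was the lowest of its group. The group means were 732 ± 101 (SD, n = 3), 2863 ± 816 (SD, n = 4) and 4361 ± 2397 (SD, n = 4). The coefficient of variation was 13.8% in control, 28.5% at the low dose and 55.0% at the high dose. Low dose mouse 3 and high dose mouse 2 widened the spread of their groups, so these values do not show a spread graded by dose. The deposited counts before scaling gave the same picture, with 643 to 931 in control, 1608 to 4010 at the low dose and 924 to 5052 at the high dose.

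**Figure D1:**
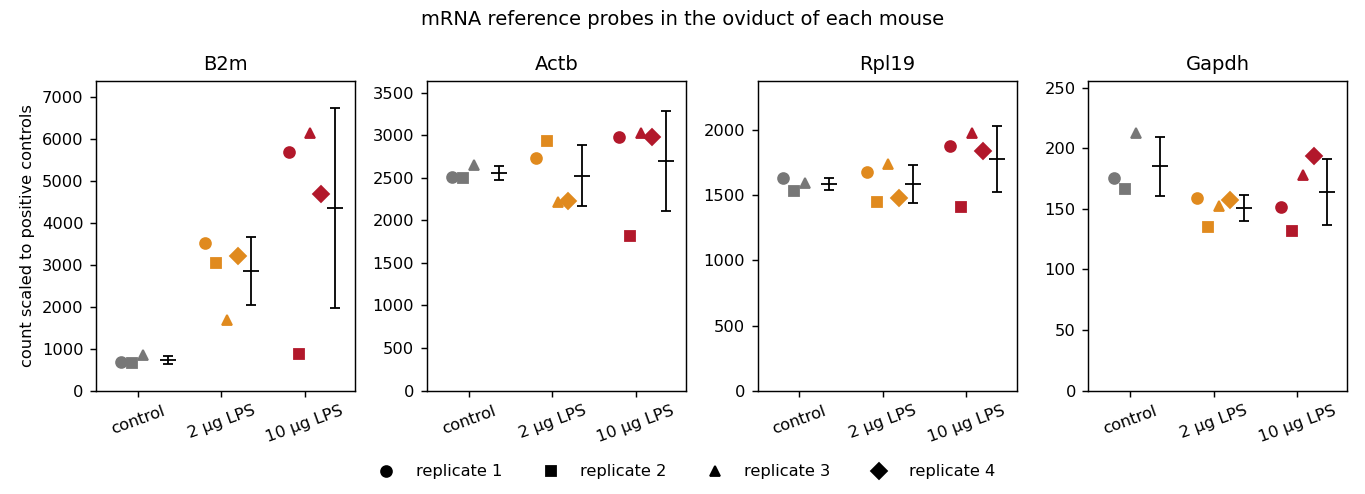
Scaled counts of the 4 mRNA reference probes (y axis, count scaled to the positive controls) by treatment (x axis), with 1 point per mouse, its shape giving the replicate number, and the mean ± SD of each group at its right. B2m is above the control range in all 8 LPS mice but reaches only 884 in high dose mouse 2, while the other 3 probes overlap across doses except Gapdh at the low dose.

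Among 209 probes fitted together (205 detected miRNAs and the 4 mRNAs) with edgeR's quasi-likelihood test, B2m stood 1.97 ± 0.44 (SE) log2 units above control at the low dose, 3.91-fold, with an adjusted p of 0.0289. At the high dose it stood 2.57 ± 0.45 (SE) log2 units above control, 5.95-fold, with an adjusted p of 0.000962 in edgeR. B2m was the only 1 of the 4 mRNAs called in either comparison, where 4.31% and 9.09% of all 209 probes were called. It had the largest absolute log2 change of the table at each dose. It also had the smallest p at the low dose and ranked 4 by p at the high dose. With both doses together against control, where 7.66% of probes were called, its log2 change was 2.27 ± 0.42 (SE) and its adjusted p 0.00218 in edgeR. The comparisons share the same 3 control mice.

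Exact permutation tests on log2 scaled counts made no use of the other probes. The two-sided exact p over both doses against control was 0.00606, the smallest that 165 splits of the 11 mice allow. For the low dose against control it was 0.0286, the smallest that 35 splits allow, with a difference of mean log2 values of 1.92. For the high dose it was 0.0571 although the groups did not overlap, and the difference of mean log2 values was 2.26. The exact permutation p of the one-way F statistic over the 3 groups was 0.0308. The low dose call was lost when scaling to the miRNAs themselves (trimmed mean of M-values, TMM) gave a log2 change of 1.81 with an adjusted p of 0.0590 in edgeR. It was also lost without any 1 of the control mice or without low dose mouse 4, with log2 changes of 1.90 to 2.09 and adjusted p up to 0.150 in edgeR.

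No difference in B2m between the doses passed a test. The high dose stood 0.61 ± 0.38 (SE) log2 units above the low dose (adjusted p 0.999, edgeR), a comparison in which 0% (0) of the 209 probes were called, with 10 at an unadjusted p under 0.05 in edgeR. DESeq2 called 1 probe and limma 0. The exact permutation p was 0.686, with overlapping groups. Without high dose mouse 2 this difference was 0.95 (adjusted p 0.0794, edgeR), and the change against control was 2.91. The order of means from control to low to high dose therefore does not separate the doses, and the test does not show that they act alike.

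Actb, the cytoskeletal reference, had scaled counts of 2508, 2501 and 2651 in control, 2732, 2930, 2216 and 2226 at the low dose, and 2977, 1818, 3031 and 2975 at the high dose. The groups overlapped, and high dose mouse 2, the lowest LPS mouse for B2m, was the lowest of all 11 for Actb. Its log2 change was -0.02 ± 0.21 (SE) at the low and 0.08 ± 0.21 (SE) at the high dose (adjusted p 0.990 and 0.959, edgeR). Its sign at the high dose turned with TMM and total-count scaling and without scaling. It also turned against the geometric mean of the other mRNA probes, a reference that includes B2m, which was itself higher after LPS.

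Rpl19, the ribosomal reference, had scaled counts of 1631, 1536 and 1598 in control, 1684, 1450, 1745 and 1481 at the low dose, and 1878, 1411, 1983 and 1845 at the high dose. High dose mouse 2 was the lowest mouse here too, and the other 3 of its group were the highest of the table. Its log2 change was 0.0015 ± 0.18 (SE) at the low and 0.16 ± 0.19 (SE) at the high dose (adjusted p 0.994 and 0.719, edgeR), and its sign too depended on the scaling. Rpl19 had the smallest spread of the 4 probes.

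Gapdh, the glycolytic reference, was counted close to background. Its scaled counts were 176, 167 and 213 in control, 159, 135, 152 and 157 at the low dose, and 152, 131.97, 178 and 194 at the high dose. In each lane its count was 1.05 to 3.14 times the detection bound, the mean plus 2 SD of the negative control probes. The low dose mice all lay below the control mice, with an exact permutation p of 0.0286, but the log2 change of -0.29 ± 0.19 (SE) had an adjusted p of 0.467 in edgeR. At the high dose the groups overlapped and the log2 change was -0.18 ± 0.19 (SE), with an adjusted p of 0.698 in edgeR.

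The spread over all 11 mice sets B2m apart in size, as a description without a test. The SD of log2 scaled counts was 1.26 for B2m, against 0.23 for Actb, 0.21 for Gapdh and 0.16 for Rpl19. From the lowest to the highest mouse, B2m spanned 9.33-fold, Actb 1.67-fold, Gapdh 1.61-fold and Rpl19 1.41-fold. Ratios between pairs of Actb, Gapdh and Rpl19 had an SD of 0.18 to 0.23 log2 units, and every ratio that held B2m an SD of 1.14 to 1.29. The geometric mean of the 3 genes without B2m ran from 697 to 1023 (1.47-fold), and that of all 4 from 739 to 1602 (2.17-fold). Adding B2m thus widened the range of the reference.

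B2m was higher after LPS also when measured against its fellow mRNA probes, which carry the same lane and RNA input. The ratio of B2m to the geometric mean of Actb, Gapdh and Rpl19 was 0.769, 0.766 and 0.877 in control, 3.91, 3.65, 2.00 and 4.00 at the low dose, and 6.02, 1.27, 6.02 and 4.61 at the high dose. On this scale high dose mouse 2 stood clear of the control range but below all other LPS mice. The edgeR log2 change was 2.08 at the low dose (adjusted p 0.000818) and 2.48 at the high dose (adjusted p 3.90e-05). The exact permutation p for both doses against control was again 0.00606.

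High dose mouse 2 was low in all 4 mRNAs relative to its group. Its geometric mean of Actb, Gapdh and Rpl19 was 697, against 947 to 1023 in the other high dose mice and 862 to 966 in control. Its scaled miRNA total of 554787 lay within the range of the 3 other high dose mice (511797 to 701440), as did its scaled ligation control (7274, against 5052 to 7341). Single miRNAs of this mouse went both ways. With TMM-normalized counts, miR-132 (274) and let-7i (6309) were the lowest of the high dose group, and miR-138 (370.5) and miR-222 (297) the highest. What lowered its mRNA readings was not tested.

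Among the 8 LPS mice, B2m and Actb varied together from mouse to mouse. Of 6 pairs, Actb and B2m gave Pearson's r of 0.907 (exact permutation p 0.00258, adjusted over the 6 pairs 0.0155) and Spearman's rho of 0.929 (exact permutation p 0.00223, adjusted 0.0134). Without low dose mouse 3 and high dose mouse 2, the pair farthest from the median of the x axis, Actb and B2m gave r of 0.602 over 6 mice, so the relation rests in part on these mice. B2m and Rpl19 gave r of 0.70 (exact permutation p 0.0507, adjusted 0.0966) and rho of 0.857 (exact permutation p 0.0107, adjusted 0.0321), and r of 0.957 without the same 2 mice. These correlations have no dose term. Over the 6 mice left, B2m, Actb and Rpl19 were each higher in every high dose mouse than in every low dose mouse. B2m and Gapdh gave r of 0.678 (exact permutation p 0.0651, adjusted 0.0966). All probes of a lane share its RNA input and its scaling factor, whose part in these relations was not tested.

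The miRNA closest to B2m was miR-146a, a known NF-κB target that dampens Toll-like receptor signalling. Over all 11 lanes, with both scaled to the positive controls, the highest Pearson's r of log2 counts with B2m belonged to miR-146a (0.929), miR-132 (0.888), miR-1902 (0.8287), miR-367 (0.793) and miR-467f (0.784). The lowest belonged to miR-676 (-0.668), miR-30c (-0.623), miR-27a (-0.550), miR-23a (-0.531) and miR-335-5p (-0.502). With TMM-scaled counts miR-146a gave 0.941, but miR-132 gave 0.720, below miR-1902 (0.871), miR-21 (0.809) and miR-203 (0.765). These values describe 205 miRNAs over lanes that share treatment groups and scaling factors, and have no p.

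Within the LPS mice the question was whether a mouse with more B2m also had a stronger miRNA response. TMM-normalized counts of miR-146a were 829, 901 and 978 in control, 1609, 1802, 1288 and 1684 at the low dose, and 2831, 1290, 2505 and 3082 at the high dose. The lowest mouse of each dose, low dose mouse 3 and high dose mouse 2, was also the lowest of its dose for B2m, and both still lay above all control mice. With dose as a term, miR-146a had a slope of 0.41 ± 0.07 (SE) log2 units per log2 unit of B2m, which missed the threshold over 205 miRNAs (adjusted p 0.0778, edgeR). Pearson's r was 0.855 (exact permutation p 0.00466, adjusted over 205 miRNAs 0.477) and Spearman's rho 0.786 (exact permutation p 0.0279, adjusted 0.573), with r of 0.827 without the 2 mice farthest from the median of B2m. These correlations have no dose term. Among the mice left, every high dose mouse exceeded every low dose mouse in both B2m and miR-146a, so that last r cannot be told apart from the dose difference. The slope passed with all 11 mice and the groups as terms (0.41, adjusted p 0.0152, edgeR) and without high dose mouse 3 (0.45, adjusted p 0.0191, edgeR). Without high dose mouse 2 it was 0.26 ± 0.20 (SE), with an adjusted p of 0.776 in edgeR.

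miR-132, an activity- and inflammation-induced miRNA, had normalized counts of 300, 372 and 391 in control, 471, 379, 321 and 414 at the low dose, and 574, 274, 389 and 472 at the high dose. High dose mouse 2 was the lowest of all 11 mice, and the groups overlapped. Its slope on B2m was 0.31 ± 0.08 (SE), with an adjusted p of 0.379 in edgeR, and it passed without high dose mouse 3 (adjusted p 0.0191, edgeR). Its r of 0.848 became 0.403 without the 2 farthest mice, so that relation rests on them. Its change against control at the high dose was 0.27 ± 0.21 (SE) log2 units, with an adjusted p of 0.389 in edgeR.

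Some other miRNAs called after LPS, namely miR-203, miR-155, miR-101a and miR-222, ranked the 8 LPS mice in another order than B2m. This contrast rests largely on high dose mouse 2 and low dose mouse 3. miR-203, an epithelial miRNA, had normalized counts of 116, 111 and 131 in control, 212, 185, 218 and 217 at the low dose, and 349, 308, 352 and 420 at the high dose. High dose mouse 2 thus lay above every low dose mouse for miR-203, though its B2m was below all of them. miR-155, an miRNA of activated leukocytes, had 358 to 402 in control, 449 to 529 at the low dose, and 640, 646, 485 and 715 at the high dose. miR-101a had 85.2 to 114 in control, 136, 190, 233 and 189 at the low dose, and 286, 302, 240 and 324 at the high dose. For miR-222 the highest value of all 11 mice, 297, was that of high dose mouse 2, against 124 to 145.55 in control. Slopes on B2m were 0.07 ± 0.06 (SE) for miR-203, -0.04 ± 0.07 for miR-155, -0.11 ± 0.09 for miR-101a and -0.13 ± 0.06 for miR-222, with adjusted p of 0.838 to 0.857 in edgeR. By contrast miR-1902, called higher at both doses, went more with B2m, with a slope of 0.21 ± 0.09 (SE, adjusted p 0.824, edgeR). Its r was 0.679 (exact permutation p 0.0617, adjusted 0.887), and 0.414 without the 2 mice farthest from the median of B2m. For miR-21, also called at both doses, r was 0.436 and the slope 0.09 ± 0.07 (SE). Without the 2 mice farthest from the median of B2m, Pearson's r with B2m went from 0.331 to 0.878 for miR-203, from -0.09 to 0.687 for miR-101a, from -0.05 to 0.355 for miR-155 and from -0.64 to 0.0093 for miR-222. Over those 6 mice miR-203 thus had a higher r than miR-146a. These r have no dose term, and in those mice every high dose mouse exceeded every low dose mouse in B2m, miR-203, miR-101a and miR-146a. For these miRNAs r over the 6 mice thus cannot separate a relation per mouse from the dose difference.

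**Figure D2:**
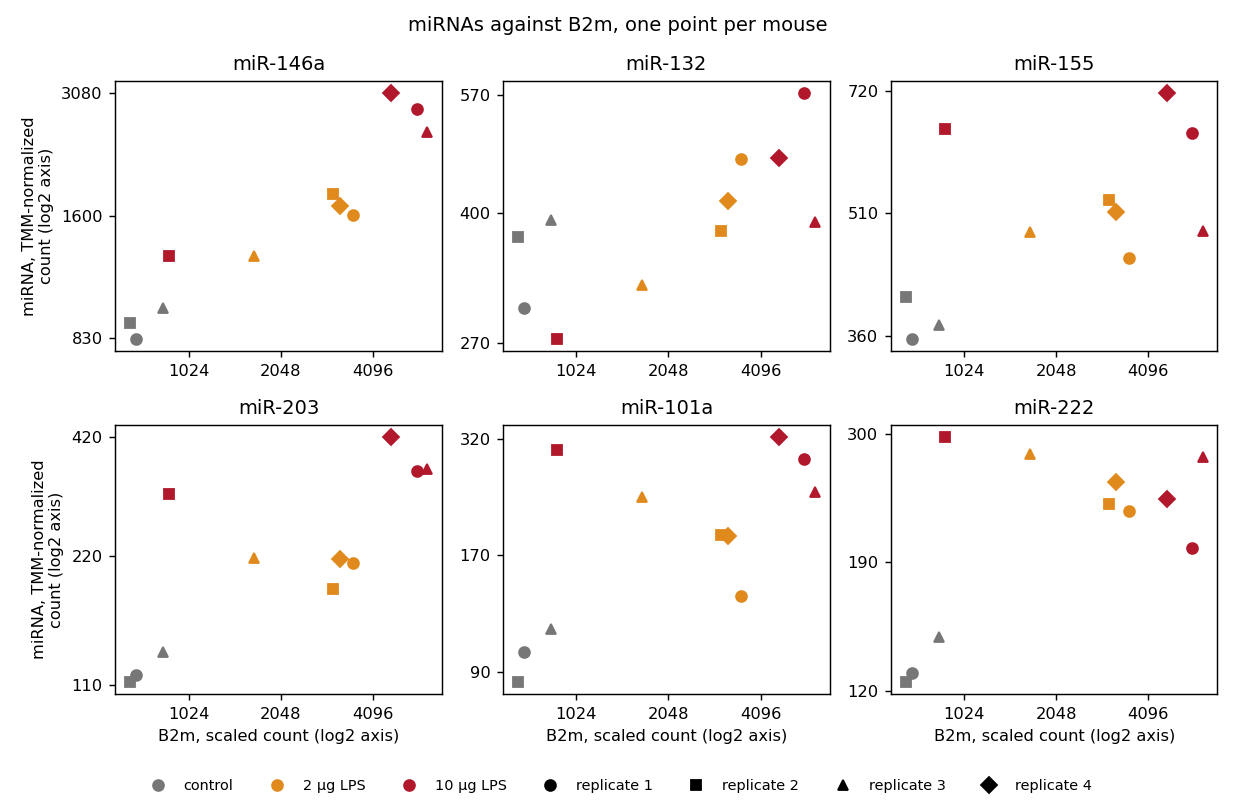
TMM-normalized counts of 6 miRNAs (y axes, log2) against the scaled count of B2m (x axes, log2), with 1 point per mouse, coloured by treatment and shaped by replicate. miR-146a is lowest where B2m is lowest within each dose, with high dose mouse 2 at 1290, whereas in miR-203, miR-101a and miR-222 that mouse lies among the other LPS mice or above them.

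Across the 205 miRNAs, 0% (0) had a slope on B2m past the threshold in edgeR, 10 had an unadjusted p under 0.05 (6 of them positive), and limma on log2 values also called 0. The median slope was -0.0059, with 97 slopes above 0. Of the 37 miRNAs called at the high dose, which made up 18% of the 205, 17 had a slope above 0 and 3 an unadjusted p under 0.05, and their median slope was -0.01. In 17 of the 37 the slope had the sign of the miRNA's change after LPS. Without high dose mouse 2 that count was 8 of 37, and the median slope of the 205 miRNAs was 0.03. The remaining slopes named by p were positive for let-7i (0.22), miR-582-5p (0.17) and miR-375 (0.33), and negative for miR-138 (-0.21), miR-199a-5p (-0.21), miR-195 (-0.24), miR-1935 (-0.11) and miR-342-3p (-0.40), none of them past the threshold. Several rest on single mice. Without high dose mouse 2 the slope was 0.81 for miR-375, -0.52 for miR-199a-5p, -0.59 for miR-195, 0.057 for miR-1935 and 0.12 for miR-342-3p. It was 0.20 for miR-375 without high dose mouse 3, and -0.62 for miR-342-3p without high dose mouse 1.

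The response of each LPS mouse was also read from miRNAs called at the high dose in a fit that left that mouse out. In high dose mouse 2, 32 of 32 such miRNAs lay outside the control range in the direction of the call, beside 70.2% of all 205 miRNAs outside that range on either side. Its B2m was 884, just above the highest control of 847. Low dose mouse 3, with the next lowest B2m, had 35 of 37, beside 65.9% of all 205 miRNAs. The highest B2m, 6161 in high dose mouse 3, went with 36 of 43, the smallest share of the 8 mice. It stood beside 61.0% of all 205 miRNAs. Low dose mice 1, 2 and 4 had 31 of 36, 32 of 33 and 32 of 33, beside 58.5%, 67.8% and 62.0%. High dose mice 1 and 4 had 35 of 39 and 26 of 26, beside 67.3% and 68.3%. The control range comes from 3 mice that also entered the calls, so these shares describe the mice and carry no test.

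**Figure D3:**
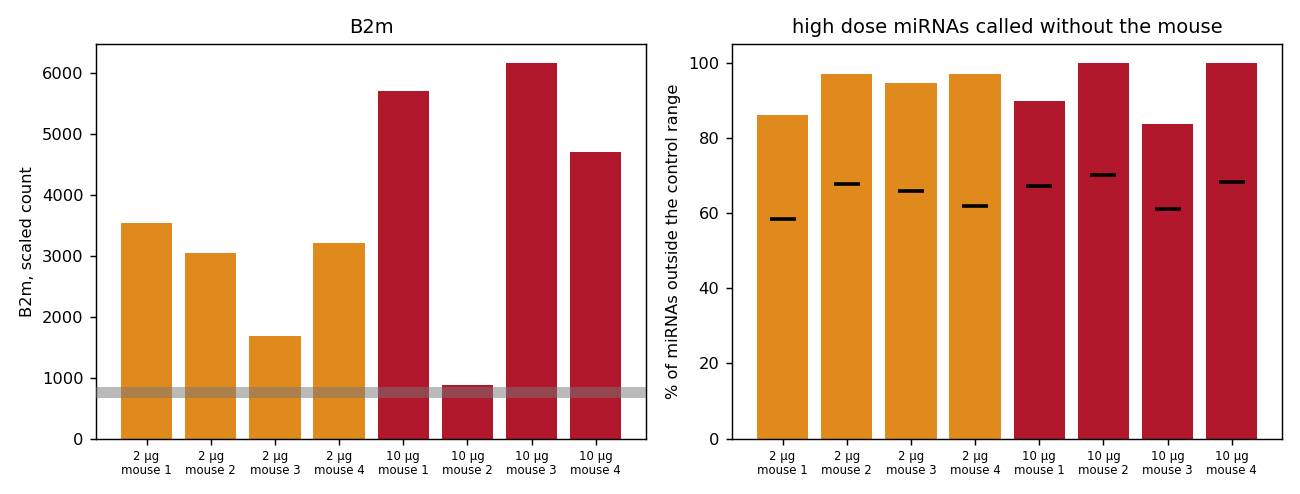
Left, scaled count of B2m in each LPS mouse (bars), with the range of the 3 control mice as a grey band. Right, the share of miRNAs called at the high dose without that mouse that lie outside the control range in the direction of the call (bars, %). Black ticks give the share of all 205 miRNAs outside that range on either side. High dose mouse 2 has the lowest B2m and a share of 100%, and high dose mouse 4, with a B2m of 4701, also has 100%.

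Markers of the cells a whole oviduct can hold were read from miRNAs. All 6 leukocyte miRNAs were detected, and their summed normalized count was 4263 to 5766 in control, 5345 to 6025 at the low dose and 4392 to 5070 at the high dose. Of them, edgeR called 0 at the low dose, where 5.85% of the 205 miRNAs were called and miR-155 (0.39) and miR-223 (-0.31) had an unadjusted p under 0.05. At the high dose miR-155 was called higher, by 0.72 ± 0.13 (SE) log2 units (adjusted p 0.00174, edgeR), where 18% of the 205 miRNAs were called. The other 5 were below control there without passing, from -0.12 for miR-142-5p to -0.44 ± 0.45 (SE) for miR-342-3p. Mice of a group were uneven for miR-342-3p, with normalized counts of 323, 979 and 911 in control and 704, 955, 295 and 214 at the high dose. The list's median log2 change was 0.16 at the low and -0.15 at the high dose. High dose mouse 2, low in B2m, had the highest leukocyte sum of its group, 5070. Every leukocyte sum at the high dose lay below every sum at the low dose, and both doses overlapped control. High against low dose, miR-142-3p stood at -0.52 (adjusted p 0.141, edgeR) and miR-155 at 0.33 (adjusted p 0.166, edgeR). The median r of the 6 leukocyte miRNAs with B2m among the LPS mice was -0.14. The oviduct's epithelial miRNAs (34380 to 36234, 28270 to 37093 and 33942 to 38467 in control, low and high dose), ciliated cell miRNAs (22252 to 32341, 20702 to 26977 and 21374 to 27649) and smooth muscle miRNAs (42288 to 54233, 40520 to 58621 and 40614 to 50989) overlapped between all groups. Within them only miR-203, of the epithelial list, was called against control, higher at both doses, beside 5.85% and 18% of all 205 miRNAs. Endothelial miRNAs summed to 4840 to 6182, 5124 to 5738 and 5329 to 6957, with miR-126-5p called higher at the high dose (0.71) and miR-126-3p at -0.02 there, beside the same 18%. Erythroid miRNAs (1425 to 4188, 1870 to 5445 and 2250 to 3134) and striated muscle miRNAs (1046 to 1202, 956 to 1448 and 407 to 1114) overlapped too and had no call against control. The part of cell composition in the B2m difference was not tested.

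Because these probes exist to scale miRNA counts, the miRNA comparisons were repeated with them as the scale. With TMM, 12 miRNAs were called at the low dose (7 higher, 5 lower) and 37 at the high dose (21 higher, 16 lower), and 1 (0.488%) between the doses. With the geometric mean of all 4 mRNAs, edgeR called 0 at the low dose (7 at an unadjusted p under 0.05) and 2 at the high dose, both lower. The median log2 change of all miRNAs became -0.20 and -0.39 on that scale. Without B2m, the geometric mean of Actb, Gapdh and Rpl19 gave 12 calls at the low dose (12 higher, 0 lower) and 16 at the high dose (14 higher, 2 lower), with medians of 0.29 and 0.13. Of these, 7 at the low dose and all 16 at the high dose were also called with TMM. The median SE of a high dose change was 0.138 with TMM, 0.25 with 3 mRNAs and 0.354 with 4.

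Single genes as the scale gave yet other counts. In edgeR, B2m alone called 0 miRNAs at the low dose (122 at an unadjusted p under 0.05) and 1 at the high dose, but with both doses together 158, all lower, where TMM called 36 (17.6%). Actb alone called 0 (21 at an unadjusted p under 0.05) and 6, Rpl19 alone 8 and 15, and Gapdh alone 63 and 31, nearly all higher. The positive controls alone called 8 and 18. At the low and high dose the 205 miRNAs had median log2 changes of -1.64 and -1.66 with B2m, and 0.46 and 0.30 with Gapdh.

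Named miRNAs show the size of the shift at the high dose. miR-146a stood 1.43 ± 0.24 (SE) log2 units above control with TMM, 1.55 ± 0.25 with Actb, Gapdh and Rpl19 (adjusted p 7.73e-05, edgeR), and 0.96 ± 0.36 with B2m included (adjusted p 0.176, edgeR). On the same 3 scales miR-203 stood at 1.58, 1.74 and 1.202, the last with an adjusted p of 0.0813 in edgeR. miR-21, induced in many inflamed tissues, stood at 0.47 with TMM (adjusted p 0.0131), at 0.64 without B2m (adjusted p 0.123) and at 0.10 with it (adjusted p 0.877, edgeR). miR-375, an epithelial and endocrine miRNA that was lower after LPS, went from -1.37 with TMM and -1.197 without B2m to -1.77 with it (adjusted p 0.000172, edgeR).

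**Figure D4:**
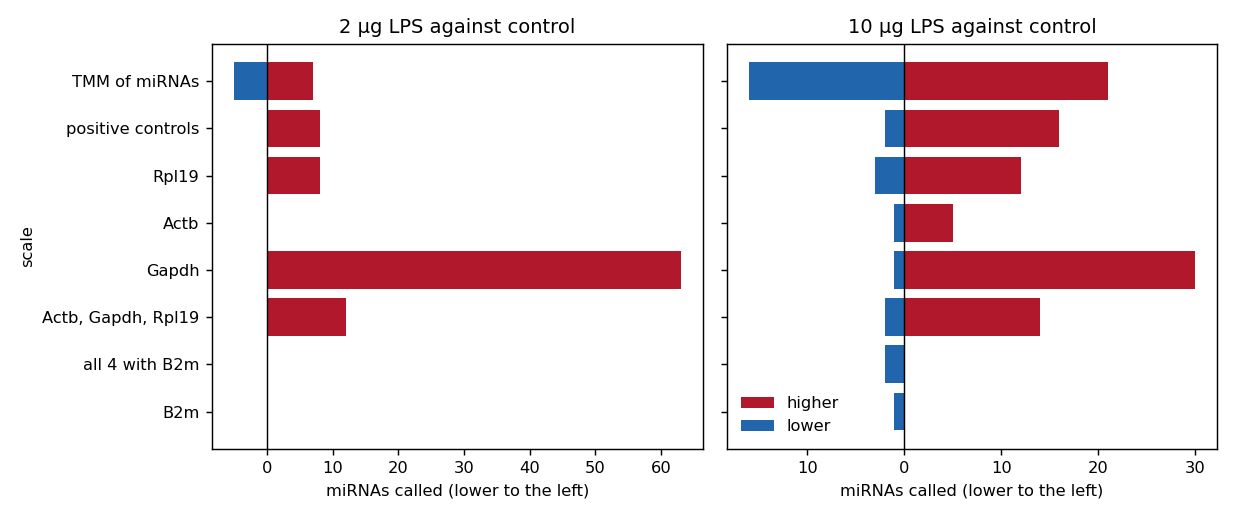
Number of miRNAs called higher (right of 0) or lower (left of 0) than control at an adjusted p under 0.05 in edgeR, at the low dose (left panel) and the high dose (right panel), for each scale on the y axis. With all 4 mRNAs, B2m included, 0 and 2 are called, and with Actb, Gapdh and Rpl19 12 and 16.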

How the data were processed

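Per the labels, total RNA from 11 mouse oviducts was run on an nCounter miRNA assay. The deposited table lists 1 barcode count for each probe in each lane. The deposited values were treated as estimated counts, since the binding density in the same columns has decimals. All 626 probe values were whole, so rounding changed nothing, and no normalization by the authors is recorded in the file. The program that made the deposited counts is not stated.

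The members, lists and tests were chosen with earlier results of these data known. Each lane was scaled by the geometric mean of its 6 positive control probes. A miRNA was detected when above the mean plus 2 SD of the 8 negative controls in at least 3 lanes, which left 205. The mRNA probes were tested with edgeR 4.0.16 (R 4.3.3) quasi-likelihood tests on 209 probes in a one-way model, with Benjamini-Hochberg adjustment and a threshold of 0.05. The SE is the log2 change over the square root of F. The fitted log2 change is a ratio of mean counts and so exceeds the difference of mean log2 values where mice are uneven. For miRNA calls and for slopes on B2m (8 LPS mice, dose as a term) TMM scaling over the 205 miRNAs was used. Exact permutation tests were enumerated in full with numpy 2.4.6, over 11550 arrangements for F and 40320 orders of 8 mice for correlations. Ranks and the adjustment of their p came from scipy 1.17.1. The fits were tested on simulated counts first.

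On the positive-control scale the median log2 change of all detected miRNAs was 0.18 at the low and 0.12 at the high dose. Lanes of a group differed beyond counting noise, with a chi-square per degree of freedom of 7.13 to 34.5. No pair of lanes within a group thus looked like 1 readout deposited more than once, and pairs across groups were not compared. Whether lanes repeat the same RNA was not tested. The miRNAs named were the 6 with the smallest p per direction at the high dose, an LPS-responsive list, the 5 smallest p per direction of the slope fit, and the 5 most and least like B2m; those not in the text had no slope past the threshold. Alternatives were other scalings, filters, limma 3.58.1, DESeq2 1.42.0, background subtraction, the analysis of variance of the design text, a replicate block and leaving out each mouse.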

Additional observations from a re-analysis of the deposited data

Results flagged for a closer look

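Of 64 groups of 4 mice checked, 3 held a mouse far from the others of its dose, and chance alone marks about 1 in 20 groups. The Actb scaled count of high dose mouse 2 was 1818, against 2975 to 3031 in the other 3 mice of that dose. The miR-203 normalized count of low dose mouse 2 was 184.74, against 212 to 218 in the others. A miR-322 normalized count of 1556.7 stood apart in the high dose group, whose lowest mouse had 1040.7.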

How the results depend on the processing

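The B2m change kept its direction and its call at the high dose (2.25 to 2.62) and with both doses together (2.09 to 2.31) under every other scaling, filter, background or model fit run, and without any single mouse (2.36 to 2.91 and 2.16 to 2.44). The exception at the high dose was the exact permutation test, with p of 0.0571 on the positive-control scale and against the other 3 mRNAs. At the low dose it was 1.81 with TMM (adjusted p 0.0590, edgeR), and 1.85 to 2.15 without single mice, with adjusted p of 0.000102 to 0.150. High against low dose it was 0.39 to 0.95 without single mice, never past the threshold. Reversed values, none of them called, were those of the other mRNAs. Rpl19 at the low dose was -0.19 (TMM), -0.16 (total count), -0.037 (unscaled), -0.52 (other 3 mRNAs), -0.0077 (background subtracted) and -0.0027 (limma, and likewise the analysis of variance). Rpl19 at the high dose was -0.021 (TMM), -0.041 (unscaled) and -0.51 (other 3), with both doses -0.11 (TMM), -0.069 (total), -0.039 (unscaled) and -0.52 (other 3), and between doses -0.0031 (unscaled). Actb at the high dose was -0.11, -0.068, -0.13 and -0.68 in the order TMM, total, unscaled and other 3, with both doses -0.15, -0.11, -0.090 and -0.62, and between doses -0.085 (unscaled) and -0.12 (other 3). Gapdh between doses was -0.040 (unscaled) and -0.041 (other 3). Without single mice, Actb spanned -0.094 to 0.042 at the low dose and -0.0069 to 0.11 with both doses, Rpl19 -0.046 to 0.043 at the low dose, and the slopes of miR-1935 -0.14 to 0.057 and miR-342-3p -0.62 to 0.12. For Actb, Rpl19 and Gapdh the other 3 mRNAs include B2m, and a higher B2m lowers every value divided by it. The cause of the other reversals was not tested.

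TMM called 12, 37, 36 and 1 miRNAs at the low dose, the high dose, both together and between doses. Counts became 0, 2, 2 and 0 with all 4 mRNAs, 12, 16, 19 and 0 without B2m, 0, 6, 6 and 0 with Actb, 0, 1, 158 and 0 with B2m, 63, 31, 65 and 0 with Gapdh, 8, 15, 16 and 0 with Rpl19, and 8, 18, 15 and 0 with the positive controls (between doses 5, 10, 7, 0, 16, 20 and 10 had an unadjusted p under 0.05 in edgeR on these scales). Without single mice they ranged over 3 to 13, 26 to 43, 24 to 48 and 1 to 14. The count of slopes on B2m was 1 with all 11 mice and 0 to 2 without single mice. Replicate numbers gave no clear sign of pairing: 2 of 10 same-numbered pairs correlated above 0.1 (r from -0.29 to 0.40), and 3 of 11 lanes correlated best with their own number. Control mouse 3 carries sample number 4 in the labels, so its replicate number may not match those of the other groups. With the replicate block, B2m changed by 1.92 (adjusted p 0.0371), 2.37 (0.00491), 2.15 (0.00550) and 0.45 (0.995, edgeR), and TMM calls were 11, 28, 27 and 1. Precision is limited by 3 control mice and, for Gapdh, by counts near background.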
